A study of Mus musculus with 6 samples.

Results

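The 7 genes that encode the enamel matrix proteins and the enamel proteases were followed in bulk RNA sequencing of the proximal end of the mouse incisor. They are *Amelx*, *Ambn*, *Enam*, *Amtn*, *Odam*, *Mmp20* and *Klk4*, taken by name from the 19060 genes of the count table, and all 7 were present and passed the filter on low counts, as did 15826 genes in all. The control mice were Fgfr1fl/fl, homozygous for a floxed *Fgfr1* allele with no Cre in their genotype, and the sample labels call them wild type. The mutant mice were Gli1CreER;Fgfr1fl/fl (Gli1-Cre;Fgfr1fl/fl in the labels), in which tamoxifen activates Cre in cells that express *Gli1*. Both groups carried the floxed alleles, were labelled with an age of 1 month, and gave incisors collected 1 week after tamoxifen, with 3 samples in each group. The counts do not show in which cells *Fgfr1* was recombined, and the labels do not give the length of the piece of incisor that was taken. The question addressed here is how the transcripts of enamel formation differed between the genotypes.

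The mouse incisor grows throughout life, and its enamel is made by ameloblasts, epithelial cells that leave the cervical loop at the proximal end and move toward the tip as they differentiate. Secretory ameloblasts lay down a protein matrix of amelogenin, ameloblastin and enamelin, which the metalloprotease MMP20 begins to cut. At the maturation stage the protease KLK4 degrades what is left of the matrix while the mineral hardens, and the cells deposit amelotin and ODAM in the basal lamina that joins them to the enamel surface. All of these proteins except the proteases belong to the secretory calcium-binding phosphoproteins, a family that also includes dentin and bone matrix proteins and the caseins.

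*Amtn*, *Ambn* and *Enam* are neighbours on mouse chromosome 5, and *Odam* lies on the same chromosome (GRCm38). On the plus strand, *Odam* spans 87885029 to 87894174, *Amtn* 88376108 to 88385916, *Ambn* 88455991 to 88468531 and *Enam* 88487975 to 88506049. *Amelx* is on the minus strand of chromosome X from 169176114 to 169187200, inside *Arhgap6*, which runs on the opposite strand. *Arhgap6* had between 0 and 12.0 CPM (counts scaled to a common library size) in the 6 samples, where *Amelx* had at least 15184 CPM. *Mmp20* is on chromosome 9 from 7628231 to 7674979, where an antisense gene, AV064505, overlaps it, and *Klk4* is on chromosome 7 from 43881160 to 43885804. The 100 bases before the RefSeq transcription start of the 5 phosphoprotein genes are shown because they share a short run of letters, TGATTGG, printed in capitals. They lie at chrX:169187210-169187309 (− strand) for *Amelx*, chr5:88455891-88455990 (+ strand) for *Ambn*, chr5:88487875-88487974 (+ strand) for *Enam*, chr5:88376008-88376107 (+ strand) for *Amtn* and chr5:87884910-87885009 (+ strand) for *Odam*, in GRCm38.p6, and each is written 5′ to 3′ on the strand of its gene.
Amelx: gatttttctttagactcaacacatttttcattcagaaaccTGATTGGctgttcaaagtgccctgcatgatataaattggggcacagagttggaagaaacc
Ambn: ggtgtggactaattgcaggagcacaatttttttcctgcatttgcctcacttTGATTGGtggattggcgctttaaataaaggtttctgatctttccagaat
Enam: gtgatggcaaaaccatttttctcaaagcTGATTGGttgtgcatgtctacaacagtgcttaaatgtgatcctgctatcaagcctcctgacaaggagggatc
Amtn: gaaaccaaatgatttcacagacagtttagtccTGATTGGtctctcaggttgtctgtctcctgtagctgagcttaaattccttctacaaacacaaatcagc
Odam: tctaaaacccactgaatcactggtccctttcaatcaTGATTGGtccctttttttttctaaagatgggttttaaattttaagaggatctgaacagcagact
The first base of TGATTGG lay 60 bases before the start in *Amelx*, 49 in *Ambn*, 72 in *Enam*, 68 in *Amtn* and 64 in *Odam*. The run contains ATTGG, the reverse complement of the CCAAT box, and it was chosen after the sequences had been looked at. Among 32851 RefSeq promoter windows of 300 bases, from 250 before to 50 after the start, 4.01% held it on the strand of the gene and 7.82% on either strand. The windows of *Mmp20* and *Klk4* did not hold these letters. Among the relatives on chromosome 5, *Ibsp* held them 56 bases before the start, *Mepe* 23, 1 of the 2 windows of *Spp1* 48 and 1 of the 2 of *Dmp1* 103, while the windows of the caseins *Csn1s1* and *Csn2* did not hold them. The match is a description of sequence, and the genes that share it had both lower and higher counts in the mutant, as given below for each.

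The 3 control samples held between 31060222 and 32712448 counts and the 3 mutant samples between 5276557 and 11819576. The share of all genes at 0 counts was 3.83 to 3.96% in controls and 17.1 to 30.3% in mutants, while the lowest count of any enamel gene was 523, for *Klk4* in mutant 1. The log2 CPM of mutant samples correlated less with each other (Pearson's r 0.725 to 0.791 across genes) than those of control samples did (0.944 to 0.973). *Fgfr1* was at 529, 924 and 434 CPM in the control samples and at 148, 318 and 262 CPM in the mutant samples, so that each mutant sample was lower than each control sample (log2 fold change -1.37, SE 0.40, unadjusted p = 0.00846 and adjusted p = 0.0881, edgeR's quasi-likelihood test). With transcript length and GC content corrected for, its log2 fold change was -0.75 (unadjusted p = 0.0286). Incisor identity was checked on *Amelx*, the most counted gene of the controls, and on the dentin gene *Dspp*, between 1590 and 7742 CPM in every sample. A list of 8 skeletal muscle genes summed to 9.44 to 2580 CPM in controls and 134 to 5491 CPM in mutants, the highest values being in mutant 1, control 2 and mutant 3. In whole tissue, fewer ameloblasts and less RNA per ameloblast cannot be told apart.

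*Amelx*, *Ambn* and *Enam* were among the most heavily counted genes of the control incisor. Together the 7 enamel genes took 9.14, 11.5 and 12.7% of all counts in control samples 1, 2 and 3 and 3.05, 3.44 and 6.54% in mutant samples 1, 2 and 3. Each mutant sample therefore had a lower share than each control sample, with mutant 3 closest to the controls. The 4 secretory genes made up nearly all of it, with 8.96 to 12.5% of counts in controls and 2.82 to 6.01% in mutants. The 3 maturation genes took 0.176 to 0.244% of counts in controls and 0.235 to 0.531% in mutants, and here the groups overlapped through mutant 1. By mean share of counts, *Amelx* ranked 1 and *Ambn* 2 among all genes in control, and 2 and 5 in mutant samples, while *Enam* moved from rank 11 to 109. *Odam* moved from rank 157 to 74, *Mmp20* from 145 to 294 and *Klk4* from 810 to 885, while *Amtn* was at rank 74 in control and 72 in mutant samples.

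**Figure D1:**
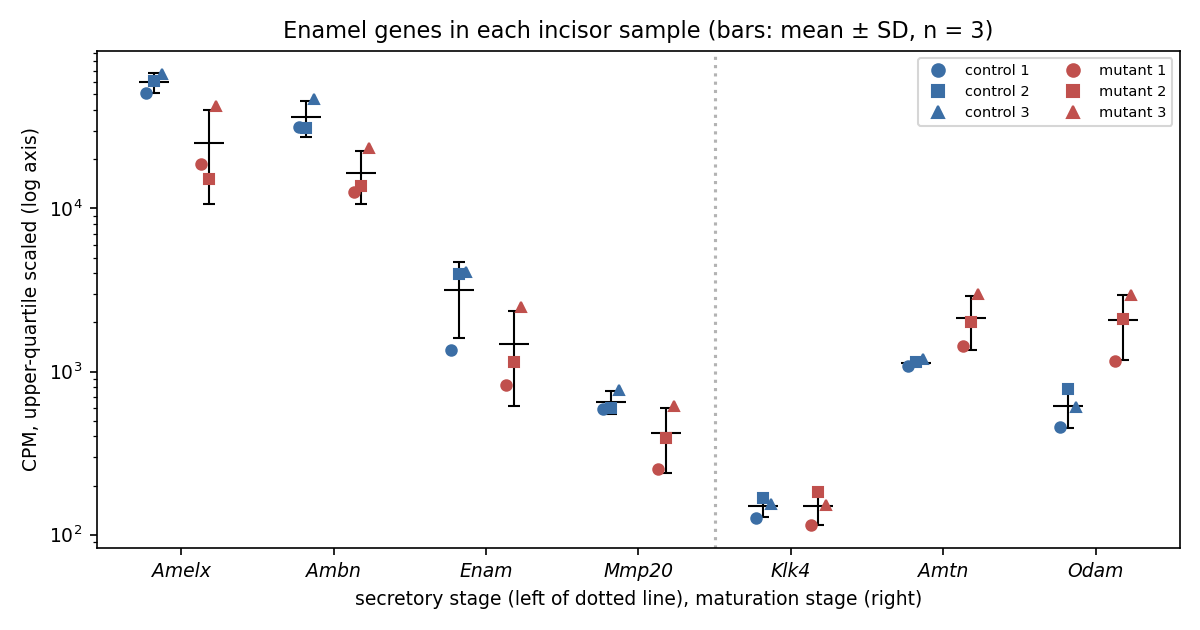
Level of each enamel gene in each sample, in CPM after upper-quartile scaling on a log axis, with secretory-stage genes to the left of the dotted line and maturation-stage genes to the right. Blue symbols are control and red symbols mutant samples, shapes mark the replicate, and bars give the mean ± SD of 3 samples. *Amelx* and *Ambn* lie lower in all 3 mutant samples, *Klk4* is level, and *Amtn* and *Odam* lie higher in all 3.

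Per kilobase of transcript, which allows levels to be compared between genes, the controls ran in the order *Amelx* (mean 70565 CPM per kilobase), *Ambn* (19632), *Amtn* (1111), *Enam* (573), *Odam* (447), *Mmp20* (199) and *Klk4* (120). Neighbours in this order did not overlap between their 3 control samples except *Enam*, which ran from 249 to 746 CPM per kilobase, and *Odam*, from 332 to 567. In the mutants *Odam* (mean 1512 CPM per kilobase) stood above *Enam* (271), and no mutant sample of *Odam* was as low as the highest of *Enam*, 853 against 451 CPM per kilobase. *Odam* then overlapped with *Amtn* (mean 2089 CPM per kilobase), and *Mmp20* and *Klk4* were at means of 128 and 120 CPM per kilobase, with overlapping samples. *Amelx* and *Ambn* remained far above the rest in both groups.

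Of the secretory genes, *Amelx* encodes amelogenin, the bulk of the young enamel matrix. It was at 50951, 60146 and 66940 CPM in control samples 1 to 3 and at 18669, 15184 and 42259 CPM in mutant samples 1 to 3. No mutant sample reached the lowest control sample, and mutant 3 was far above the other mutants. The control mean of 59345 ± 8024 CPM (SD, n = 3) was 2.34 times the fitted mutant level (mutant mean 25371 ± 14729, n = 3), but the log2 fold change of -1.23 (SE 0.67, 95% interval -2.77 to 0.32) did not pass the test (unadjusted p = 0.105, adjusted p = 0.370, edgeR).

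*Ambn* encodes ameloblastin, a matrix protein that also links ameloblasts to the enamel surface. It was at 31373, 31167 and 46654 CPM in control and at 12680, 13712 and 23409 CPM in mutant samples. As with *Amelx*, all mutant samples were below all controls, and sample 3 was the highest in both groups. The log2 fold change was -1.13 (SE 0.57, 95% interval -2.45 to 0.18), which did not pass the test (unadjusted p = 0.0821, adjusted p = 0.325, edgeR).

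*Enam* encodes enamelin, a large glycoprotein of the growing mineral front. Its levels were 1364, 3975 and 4089 CPM in control and 827, 1151 and 2473 CPM in mutant samples. The groups overlapped because control 1 was far below the other controls. The log2 fold change of -1.08 (SE 0.56, adjusted p = 0.342, edgeR) became -1.44 without control 1 and -1.68 without mutant 3, and in both of these its unadjusted p went under 0.05 (0.0264 and 0.0311).

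*Mmp20*, the secretory-stage protease, was at 590, 599 and 775 CPM in control and at 253, 394 and 613 CPM in mutant samples. Mutant 3 was above 2 of the controls, and the other mutants were below all of them. The log2 fold change was -0.64 (SE 0.36, 95% interval -1.46 to 0.18, adjusted p = 0.376, edgeR). All 4 secretory genes had a log2 fold change under 0 and none passed the adjusted threshold.

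At the maturation stage, *Odam* was the gene called as higher at an adjusted p under 0.05 in the reported fit. It encodes odontogenic ameloblast-associated protein, found in the basal lamina of maturation ameloblasts and in the junctional epithelium around teeth. It was at 454, 776 and 607 CPM in control samples and at 1168, 2086 and 2958 CPM in mutant samples. The lowest mutant sample was above the highest control sample. The mean went from 612 ± 161 to 2071 ± 895 CPM (SD, n = 3 each), 3.38-fold higher, with a log2 fold change of 1.76 (SE 0.42, 95% interval 0.80 to 2.72, unadjusted p = 0.00281, adjusted p = 0.0466, edgeR). Over the other fits its adjusted p ran from 0.000174 (DESeq2) to 0.783 (with transcript length and GC content corrected for).

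*Amtn* encodes amelotin, which shares the basal lamina with ODAM. It was at 1078, 1141 and 1188 CPM in control samples, a narrow range, and at 1428, 2006 and 2971 CPM in mutant samples. Again the groups did not overlap, and mutant 3 was the highest and mutant 1 the lowest, as for *Odam*. The log2 fold change of 0.91 (SE 0.35, 95% interval 0.11 to 1.72) came with unadjusted p = 0.0312 and adjusted p = 0.190 (edgeR). It passed the threshold the study used, an unadjusted p under 0.05 with a change of over 1.5-fold, and not the adjusted one.

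*Klk4*, the maturation-stage protease, was at 127, 169 and 153 CPM in control and at 114, 183 and 151 CPM in mutant samples. The groups overlapped fully, with means of 150 ± 21.3 and 149 ± 34.6 CPM (SD, n = 3). The 95% interval of its log2 fold change ran from -0.59 to 0.59, so changes of up to about 1.5-fold in either direction lay inside it (adjusted p = 0.999, edgeR).

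In all, 1 of the 7 enamel genes, *Odam*, was called at an adjusted p under 0.05, where 6.79% of the 15826 genes tested were called (3.72% higher and 3.06% lower). *Amtn* and *Odam*, 2 of 7, passed the threshold of the study, beside 10.9% of all genes tested in the higher direction, 8.92% in the lower and 19.8% in either. The groups did not overlap for 4 of 7, 2 lower and 2 higher, beside 30.4% of all genes (16.3% lower and 14.1% higher). The median log2 fold change was -1.11 over the 4 secretory genes and 0.91 over the 3 maturation genes, against -0.040 over all genes tested. With transcript length and GC content corrected for, these medians were -1.39 and -0.17, against -0.047 over all genes tested.

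The calls changed when transcript length and GC content were corrected for, and the cause was not tested. The transcripts ran from 841 bases (*Amelx*) to 5483 (*Enam*) and from 41.1% GC (*Odam*) to 54.4% (*Klk4*). When the fit carried a correction for each sample's trend in both, *Odam* had a log2 fold change of 0.44 (unadjusted p = 0.404, adjusted p = 0.783) and *Amtn* one of -0.17 (unadjusted p = 0.688), so the calls of both genes were lost and the direction of *Amtn* turned. *Klk4* was then at -0.42 (unadjusted p = 0.211, edgeR). Under the same correction *Amelx* went to -2.35, *Ambn* to -1.54, *Enam* to -1.24 and *Mmp20* to -1.08, and these 4 then passed the threshold of the study (unadjusted p between 0.00439 and 0.0356, edgeR). In that fit 1203 of all 15826 genes tested passed it as lower and 1077 as higher. None of the 4 passed the adjusted threshold there (adjusted p between 0.0791 and 0.273, edgeR). Depth also differed between the groups: with control counts thinned to the mean mutant total, the log2 fold change of *Odam* was 1.75 and that of *Amtn* 0.90, close to the values above. The calls did change, with an adjusted p of 0.0622 for *Odam* (edgeR). *Amelx* and *Ambn* then passed the threshold of the study (unadjusted p = 0.0450 and 0.0330, edgeR), beside 1119 lower of all 14530 genes tested. The thinned controls, at 9484797 counts, still held more than mutant 1, at 5276557. The adjusted p of *Odam* was 0.0431 without mutant 1 and between 0.0739 and 0.216 without any other single sample. *Amtn* passed the study's threshold without control 2 or mutant 1 and missed it without any of the other 4. Without mutant 1, the shallowest sample, the log2 fold changes were -1.06 for *Amelx*, -0.99 for *Ambn*, -0.81 for *Enam*, -0.40 for *Mmp20*, 0.14 for *Klk4*, 1.12 for *Amtn* and 2.03 for *Odam*.

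**Figure D2:**
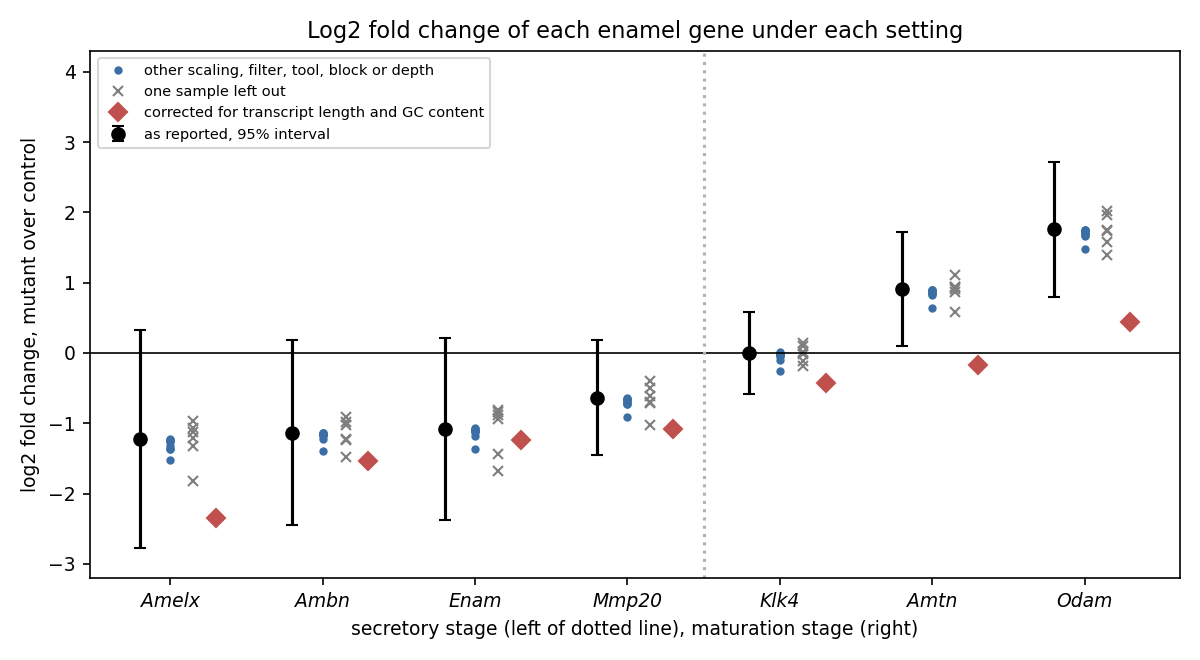
Log2 fold change of each enamel gene, mutant over control, as reported with its 95% interval (black), under other scalings, filters, tools, the replicate block and thinned depth (blue), with 1 sample left out (grey crosses) and with transcript length and GC content corrected for (red diamonds). The secretory genes stay under 0 in every case, *Odam* stays over 0, and the red diamonds are the lowest values of all genes but *Enam*.

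Ratios between enamel genes inside one sample do not depend on how samples were scaled. For every 100 counts of *Amelx* there were 0.892, 1.29 and 0.907 counts of *Odam* in control samples 1 to 3 and 6.26, 13.7 and 7.0 in mutant samples 1 to 3. The mutant ratios were all above the control ratios, and their mean was 8.74 times as high. *Amtn* per 100 *Amelx* counts went from 1.77 to 2.12 in controls to 7.03 to 13.2 in mutants, with a mean 4.82 times as high. Against *Ambn*, the ratios of *Odam* (1.30 to 2.49 in control, 9.21 to 15.2 in mutant) and of *Amtn* (2.55 to 3.66 and 11.3 to 14.6) were likewise apart. The maturation genes together made up 1.62 to 2.13% of enamel counts in controls and 7.71 to 12.3% in mutants. These pairs were chosen after their values had been seen and were not tested.

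Among the secretory genes the ratios were closer. *Ambn* per 100 *Amelx* counts was 51.8 to 69.7 in controls and 55.4 to 90.3 in mutants, and *Enam* per 100 *Amelx* counts between 2.68 and 6.61 and between 4.43 and 7.58, so both overlapped. *Mmp20* per 100 *Amelx* counts was 0.995 to 1.16 in controls and 1.36 to 2.59 in mutants, all mutants higher. For the proteases, *Klk4* per 100 *Mmp20* counts was 19.8 to 28.2 in controls and 24.6 to 46.6 in mutants, with mutant 3 inside the control range. *Klk4* counts did not keep step with those of *Odam*: there were between 21.7 and 27.9 counts of *Klk4* per 100 of *Odam* in control and 5.10 to 9.77 in mutants, with no correction for length or GC content.

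**Figure D3:**
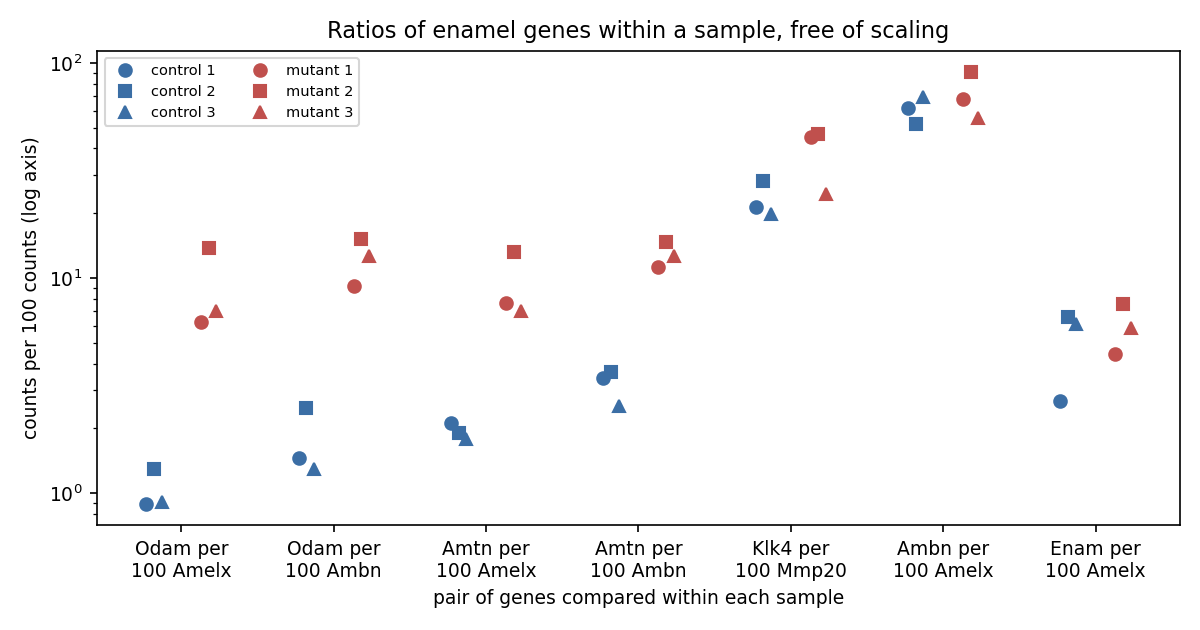
Counts of one enamel gene per 100 counts of another in each sample, on a log axis, with blue for control, red for mutant and shapes for the replicate. *Odam* and *Amtn* per 100 *Amelx* or *Ambn* counts are higher in all 3 mutant samples, while *Klk4* per 100 *Mmp20*, *Ambn* per 100 *Amelx* and *Enam* per 100 *Amelx* overlap.

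The gap between stages was also expressed as the difference of 2 log2 fold changes. *Odam* minus *Amelx* was 2.98 and lay between 2.71 and 3.22 over all 17 fits, the reported one and its alternatives. Sample scaling cancels in such a difference, so fits that differ only in scaling could hardly move it. Both ends of the range came from leaving out 1 sample. *Amtn* minus *Amelx* was 2.14, between 1.92 and 2.41, where both ends again came from leaving out 1 sample. The length and GC correction gave the lowest values for *Odam* minus *Ambn* (2.89 as reported, 1.98 corrected) and for *Amtn* minus *Ambn* (2.04 as reported, 1.38 corrected), both still above 0. *Klk4* minus *Mmp20* was smaller, 0.64, between 0.42 and 1.01. *Odam* minus *Klk4* was 1.76, between 0.87, after the length and GC correction, and 1.93. These differences have no test of their own.

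The enamel genes of one stage also varied together over the 6 samples, genotype included, apart from *Klk4*. Pearson's r of log2(CPM + 1) was 0.96 between *Amelx* and *Ambn*, 0.92 between *Ambn* and *Mmp20*, and 0.96 between *Amtn* and *Odam*, while it was -0.56 between *Amelx* and *Odam*. For *Klk4*, r was 0.045 to *Amelx*, 0.14 to *Ambn*, 0.49 to *Enam*, 0.40 to *Mmp20*, 0.27 to *Amtn* and 0.33 to *Odam*. With 6 samples in 2 groups these are descriptions.

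The genes outside the family whose levels most resembled the mean secretory profile, over 6 samples and 9700 genes with a mean of at least 10 CPM, were *Ubash3b* (r = 0.993), *Coro1c* (0.992), *Slc26a2* (0.990) and *Papln* (0.988). They were not singular, as 88 genes had an r of at least 0.95 to this profile. *Papln*, which encodes an extracellular matrix protein, was at 260, 522 and 635 CPM in control and at 82.9, 116 and 248 CPM in mutant samples, the mutants all lower. The mean maturation profile, which includes *Klk4*, was most like *Nbeal1* (0.996), *Ythdc1* (0.978), *Fam193b* (0.976), *Igf1* (0.975) and *Ubxn2a* (0.974), and 11 genes had an r of at least 0.95 to it. *Igf1*, a growth factor, was at 88.0, 97.8 and 94.6 CPM in control and at 105, 146 and 199 CPM in mutant samples, all mutants higher. *Papln* and *Igf1* were picked for likeness to profiles over these same 6 samples, genotype included. Their direction between the groups therefore follows from that choice and is no separate result. By rank correlation 0 of the 5 closest secretory and 1 of the 5 closest maturation genes stayed among the closest, with 34 and 9 genes at or above the fifth.

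Genes outside the family that are known to be needed for or active in enamel formation mostly had lower scaled counts in the mutants. This list of 22 holds transcription factors, secretory kinases, adhesion and ion-handling genes, and 22 of 22 had a log2 fold change under 0, beside 8204 of all 15826 genes tested, with a median of -0.83. At the threshold of the study 7 passed in the lower and 0 in the higher direction, beside 8.92 and 10.9% of all genes tested, and for 10 of 22 every mutant sample was below every control, beside 16.3% of all genes. The summed level was 2717 to 4267 CPM in controls and 1626 to 2460 CPM in mutants. Over the alternatives the number that passed as lower ran from 4, after the length and GC correction, to 12, with the replicate block. Beside these, 1203 and 1240 of all 15826 genes tested passed as lower. The length and GC correction moved the median to -0.19 with 18 of 22 under 0.

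Of these, *Fam20a* and *Relt*, 2 of 22, were lower at an adjusted p under 0.05, beside 3.06% of all genes tested. *Fam20a*, a pseudokinase that activates the kinase that phosphorylates enamel proteins, was at 104, 177 and 166 CPM in control and at 68.3, 64.2 and 53.1 CPM in mutant samples (log2 fold change -1.27, SE 0.27, adjusted p = 0.0464, edgeR). *Fam20c*, that kinase, had a log2 fold change of -0.97 (SE 0.27, unadjusted p = 0.00693, adjusted p = 0.0780), which the length and GC correction brought to -0.11. *Relt*, a member of the tumour necrosis factor receptor family in which mutations cause thin enamel, was at 85.2, 65.2 and 94.4 CPM in control and at 35.8, 31.9 and 43.3 CPM in mutant samples (log2 fold change -1.14, SE 0.25, adjusted p = 0.0464, edgeR). For both genes all mutant samples were below all controls. After the length and GC correction their log2 fold changes were -0.81 and -0.68 (adjusted p = 0.116 and 0.215), and without any single sample the adjusted p ran from 0.0495 to 0.190 for *Fam20a* and from 0.0598 to 0.221 for *Relt*. *Lamb3*, a laminin chain, had a log2 fold change of -1.43 (SE 0.35, unadjusted p = 0.00359, adjusted p = 0.0513), and -0.81 after that correction. The transcription factors *Dlx3*, *Sp6* and *Msx2*, which act in ameloblast differentiation, had log2 fold changes of -0.48, -0.77 and -0.072 (unadjusted p = 0.115, 0.0597 and 0.756). *Sp6* passed the threshold of the study in 6 other fits (TMM, total counts, DESeq2, limma-voom, the replicate block and without control 1), and *Sp6* was at -0.14 and *Dlx3* at -0.11 after the length and GC correction.

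Genes of the dental epithelium as a whole overlapped between the groups in their summed level. Of 14 listed, 1 passed the study's threshold as lower (*Krt15*, a keratin of epithelial progenitors, log2 fold change -0.83, unadjusted p = 0.0327) and 0 as higher, beside 8.92 and 10.9% of all genes tested. *Krt15* missed the threshold without control 1 (unadjusted p = 0.0562), control 3 (0.171) or mutant 2 (0.106). Over the other fits, DESeq2 and limma included, 0 to 4 genes passed as lower and 0 to 2 as higher. The 4 lower came with total counts, beside 2335 of all 15826 genes, and without mutant 3, beside 2572 of 17123. The 2 higher came with the replicate block, beside 1503 of 15826 genes, and without control 3, beside 1230 of 15600. The summed level was 2541 to 4808 CPM in controls and 2804 to 3296 CPM in mutants. The median log2 fold change was -0.17, and it went above 0 after the length and GC correction and without control 3, mutant 1 or mutant 2. The basal keratins *Krt14* and *Krt5* had log2 fold changes of -0.64 (unadjusted p = 0.0844) and -0.63 (unadjusted p = 0.109), all mutant samples being below all controls. In all, 9 of 14 had a log2 fold change under 0 and 5 above it, among them *Perp*, a desmosome-associated gene, at 0.67 with all mutants above all controls (unadjusted p = 0.0832), and *Epcam*, an epithelial adhesion gene, at 0.58 (unadjusted p = 0.0663), which were named after their values had been seen. Set against *Krt14*, *Amelx* overlapped between groups, at between 5983 and 10478 counts per 100 *Krt14* counts in control and 3075 to 7858 in mutants. *Krt14* was itself lower in all mutants, which raises every mutant ratio to it, so this overlap holds for *Krt14* and not for the epithelium as a whole. Against *Perp*, *Amelx* is lower in each mutant than in each control, because the 2 genes separated in opposite directions. *Odam* per 100 *Krt14* counts did not overlap, at 54.2 to 135 in controls and 260.0 to 550.1 in mutants.

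The relatives of the enamel genes that serve dentin and bone, with the caseins, overlapped between the groups. Of 11 listed phosphoprotein relatives, 7 were in the table and 6 were tested, and 0 of 6 passed either threshold in the reported edgeR fit, with 0 of 6 at an unadjusted p under 0.05 and 0 of 6 past the threshold of the study in DESeq2 or limma. Other edgeR fits passed 1 to 2 of them at that threshold: *Dmp1* as lower with total counts (-1.04) and without control 1 (-1.12), *Sparcl1* as lower without control 1 (-0.72) and *Spp1* as higher without control 2 (1.35). Of all genes tested, 2335 of 15826 passed as lower with total counts and 1002 of 15519 without control 1. Without control 2, 1375 of 15490 passed as higher. *Dspp*, the main non-collagen gene of dentin, was at 2388, 7742 and 1590 CPM in control and at 2181, 3498 and 3359 CPM in mutant samples, and control 2 set the spread. Its log2 fold change was -0.37 (SE 0.60) and became 0.60 without control 2. As reported, the log2 fold changes of the others were -0.76 for *Dmp1*, -0.41 for *Sparcl1*, 0.22 for *Csn3*, 0.43 for *Ibsp* and 0.83 for *Spp1*, and *Csn3* was at no more than 2.90 CPM. *Mepe*, at no more than 2.09 CPM, was not tested. The odontoblast list gave 1 of 10 lower (*Col1a2*, a chain of type I collagen, log2 fold change -1.12, unadjusted p = 0.0312) and 0 higher at the threshold of the study, beside 8.92 and 10.9% of all genes tested, with a median log2 fold change of -0.40. *Col1a2* missed that threshold without any 1 of the mutants and after the length and GC correction (-0.41), and without control 2 the median of the list was 0.092.

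**Figure D4:**
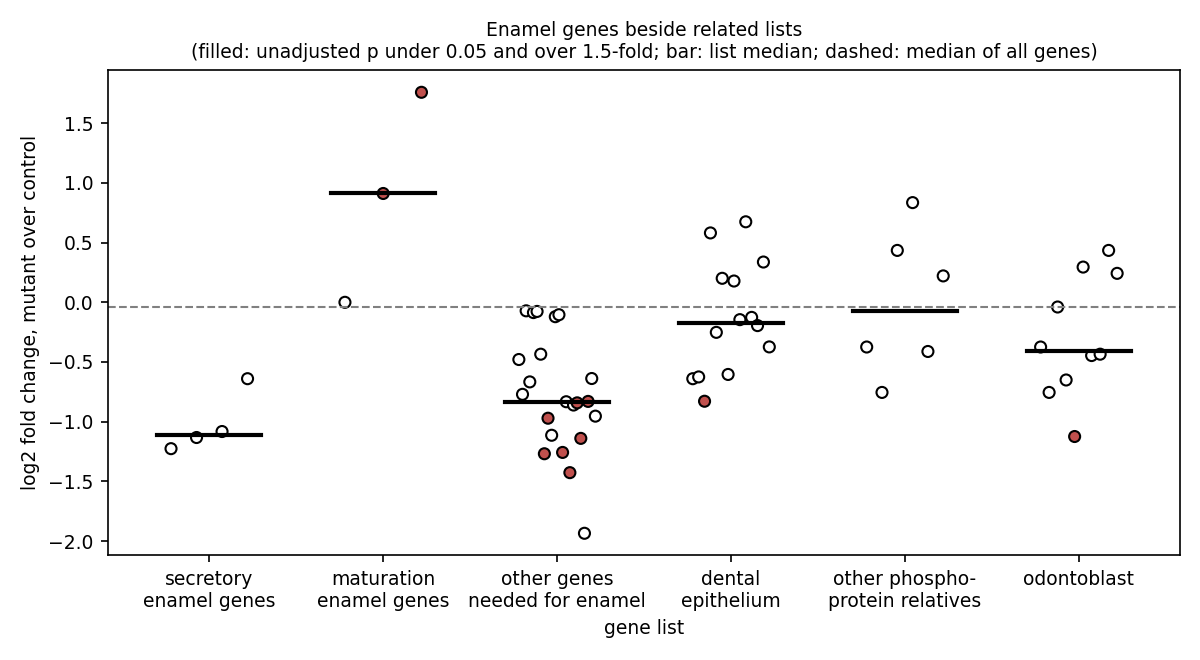
Log2 fold change, mutant over control, of each tested gene in the secretory and maturation enamel genes and in 4 related lists. Filled points passed an unadjusted p under 0.05 with over 1.5-fold change, solid bars are list medians, and the dashed line is the median of all genes tested. All secretory genes and all other genes needed for enamel lie under 0, *Odam* and *Amtn* are the filled points over 0, and the 3 lists to the right straddle 0.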

How the data were processed

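RNA from 3 control and 3 mutant proximal incisors was sequenced as single reads. Trimming and alignment to mm10 (GRCm38) were done by the authors with Partek Flow, and the deposited values are estimated counts of each gene, not normalized. The submitters' processing notes name TopHat2 2.0.8. How reads were counted, whether strand was used, on which annotation, and how genes were filtered is not given in the sources used here. Where counting ignored strand, reads of a gene and its antisense partner cannot be told apart. A second deposited table holds the authors' own comparison (p-values, ratios, fold changes and group means) and was not used.

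Counts were rounded to whole numbers and scaled by the upper quartile, as in the study. CPM are counts relative to these scaled totals. The test was run in edgeR 4.0.16 (R 4.3.3), with its filter on low counts (minimum count 10, total 15), genotype as the only term, a two-sided quasi-likelihood test and Benjamini-Hochberg adjustment over 15826 genes. Standard errors were derived from the F statistic. DESeq2 1.42.0 and limma 3.58.1 (voom) were alternatives, with other scalings (TMM, RLE and total counts), no filter or a mean of at least 50 counts, the replicate number as a block, thinning of control counts to the mean mutant total of 9484797, offsets for trends in transcript length and GC content, and each sample left out in turn. Lengths, GC content and positions came from GENCODE M21, which held 18637 of 19060 symbols as written and 219 under a synonym, with 204 unmatched. Promoters were RefSeq windows. The edgeR script was tested on simulated data.

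The limit that a 0 allows, 3 counts, was 0.0825 to 0.0874 CPM in controls and 0.256 to 0.655 CPM in mutants, for counting error only. The labels do not say that samples of a group came from separate litters or days, so p-values measure the spread between these samples.

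The genes, lists, tests and alternatives were chosen with earlier results of these data known. The genes named were the 7 enamel genes, their phosphoprotein relatives, the first 3 members of the enamel and dental epithelium lists with up to 4 of each that passed the study's threshold, the 5 genes most like each profile, *Fgfr1* and *Arhgap6*, of which 1 is not reported here. Lists of other cell types are given as counts and ranges, with the members that passed. For each profile, the enamel genes of a stage were centred on their means and averaged.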

Additional observations from a re-analysis of the deposited data

How the results depend on the processing

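The 4 secretory genes had a log2 fold change under 0 in all 17 fits (*Amelx* -2.35 to -0.98, *Ambn* -1.54 to -0.91, *Enam* -1.68 to -0.81, *Mmp20* -1.08 to -0.40), and *Odam* was above 0 in all (0.44 to 2.03), while their calls changed. The number of enamel genes called at an adjusted p under 0.05, 1 as reported, was 4 with DESeq2 (*Amelx*, *Ambn*, *Amtn* and *Odam*) and 0 in edgeR with TMM, total counts, no filter, a mean of at least 50 counts, thinned controls or the length and GC correction. Leaving out 1 sample gave 0 to 1. Of all genes, DESeq2 called 1272 as higher and 618 as lower out of 19060, against 589 and 485 out of 15826 as reported. The number past the threshold of the study, 2 as reported, was 5 with total counts and with DESeq2, 4 with a mean of at least 50 counts, limma-voom, thinned controls or the length and GC correction, and 1 to 4 with 1 sample left out (1 without control 3 or mutant 2, 4 without control 2). In the fits with 0 calls, between 1 and 5 genes passed that threshold. Of all genes tested, 1411 passed it as lower and 1726 as higher out of 15826 as reported. These were 2335 and 1253 with total counts, where all 4 secretory genes passed as lower, and 1994 and 1775 with limma-voom. They were 1653 and 2292 out of 19060 with DESeq2, and 1119 and 1575 out of 14530 with thinned controls. The 50-count filter gave 1018 and 1379 out of 13168, and the length and GC correction 1203 and 1077 out of 15826. Without control 2 they were 869 and 1375 out of 15490. Total counts moved the median of all genes to -0.30, and the groups then overlapped for *Amtn* and separated for *Mmp20*. The causes were not tested, and the length and GC correction rests on GENCODE models that can differ from those the authors counted on.

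With the replicate number as a block, 6 enamel genes passed the threshold of the study and 1 the adjusted one. Of all 15826 genes, 1503 then passed the first as higher and 1240 as lower, and 432 and 76 passed the second. Samples with the same number share only a number: the correlations of their deviations were 0.0472, 0.00937 and 0.0548.

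Directions turned for *Klk4* (0.016 with limma-voom, -0.19 to 0.14 with 1 sample left out, above 0 without control 2, control 3 or mutant 1), *Amtn* (-0.17), *Ibsp* (-0.014) and *Spp1* (-0.27) after the length and GC correction, *Dspp* (-0.75 to 0.60 with 1 sample left out, above 0 without control 2), *Msx2* (-0.15 to 0.021 with 1 sample left out, above 0 without control 1), *Arhgap6* (-1.03 with limma-voom, -0.33 with the block) and *Csn3* (-0.020 with total counts, -0.67 with limma-voom, -0.59 with the block, -1.36 after the length and GC correction, -0.40 to 0.76 with 1 sample left out, under 0 without control 1 or mutant 2). None of the values that turned had an unadjusted p under 0.05.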

Other observations

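The calls in lists of other cell types depended on single libraries and on the fit. Of 8 mesenchyme genes 1 passed the threshold of the study as lower (*Pdgfrb*, a receptor of perivascular and mesenchymal cells, at 110, 170 and 68.2 CPM in control and 50.4, 73.4 and 41.6 CPM in mutant samples, unadjusted p = 0.0201) and 0 as higher, beside 8.92 and 10.9% of all genes tested. *Pdgfrb* missed that threshold without control 2, mutant 1 or mutant 3 and after the length and GC correction (log2 fold change -0.45). Of 6 immune, 6 endothelial and 8 skeletal muscle genes, 0 passed in the reported fit. Without control 2, 7 of the 8 muscle genes passed as higher, beside 1375 of all 15490 genes tested. Their median log2 fold change was then 7.16 against 1.08 as reported, and without mutant 1 the median was -0.62. Of the endothelial genes 2 passed as lower with TMM, total counts, the replicate block or DESeq2. It was 1 with RLE, no filter, without control 1 or without mutant 2, and 0 with limma. Of all 15826 genes, 1733 passed as lower with TMM, 2335 with total counts, 1240 with the block and 1530 with RLE. Of 19060 genes, 1653 passed as lower with DESeq2 and 2483 with no filter. Without control 1 it was 1002 of 15519 genes, and without mutant 2 it was 2826 of 17099. Of the immune genes 1 passed as lower without control 3, beside 776 of all 15600 genes tested. Of 5 oral and salivary epithelium genes 2 were in the table, at a sum of between 3.16 and 23.9 CPM in all samples. The 5 erythroid genes went in both directions. *Hbb-bs* and *Hba-a2*, which encode haemoglobin chains, passed as higher (log2 fold changes 1.81 and 1.36) and *Hba-a1*, another haemoglobin chain gene, as lower (-2.04). Of all genes tested, 10.9% passed as higher and 8.92% as lower. After the length and GC correction *Hbb-bs* was at 0.31 and *Hba-a2* at -0.098, neither past the threshold, and the median of the list went from 1.02 to -0.098. Without mutant 3 that median was 0.073. *Hba-a1* and *Hba-a2* are near-identical copies, so the split of reads between them is uncertain.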
